A study of Mus musculus with 4 samples.

Results

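IGF1, its receptor and the IGF binding proteins were followed in mouse neural progenitor cells through the 9 genes Igf1, Igf1r, Igfbp1, Igfbp2, Igfbp3, Igfbp4, Igfbp5, Igfbp6 and Igfbp7. Their probes were found by gene name among the non-control probes of the arrays, which gave 15 probes of 41174 and 9 genes of 27659. RNA of 3 neural progenitor cell (NPC) lines was labelled with Cy3 and hybridised to 1 Agilent 1-colour array each. NS21 was grown from the embryonic stem cell line 21 (strain label 129/Ola), NS195R from the line 195R (129/Sv) and NSEB5-2C from the line EB5 (129/Ola). They were compared with 1 array of Mixture, a pool of the same mass of RNA from each of liver, lung, heart, kidney, spleen, thymus and d11 embryo, with the strain label Swiss Webster. The study asked which genes, transcription factors above all, were higher in NPC lines than in Mixture. Every ratio to Mixture also compares strains, which cannot be told apart from cell type, and for NS195R strain and line cannot be told apart.

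IGF1 is a secreted growth factor that binds the receptor tyrosine kinase IGF1R and signals through IRS and SHC adaptors to PI3K, AKT and mTOR and to the MAP kinases. The binding proteins are secreted as well: they hold IGF1 and IGF2 with high affinity, carry them, keep them from the receptor or deliver them close to the cell, and are cut by dedicated proteases. IGFBP7, the last of them, binds IGFs only weakly. In the developing brain, IGF signals are known to support growth, survival and proliferation of progenitor cells.

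The promoters of 4 binding protein genes are shown first, because these genes moved in ways that the values below describe: Igfbp1 was low in every line, and Igfbp2, Igfbp5 and Igfbp3 differed most between the lines. Each sequence is the 250 bases before the gene's start in RefSeq on the build GRCm38.p6, read 5′ to 3′ on the gene's strand. Capitals mark matches to letters searched on both strands. Igfbp1 lies at chr11:7197537-7197786 on the + strand, Igfbp3 at chr11:7213924-7214173 on the - strand, Igfbp2 at chr1:72824230-72824479 on the + strand and Igfbp5 at chr1:72874866-72875115 on the - strand.
Igfbp1 promoter: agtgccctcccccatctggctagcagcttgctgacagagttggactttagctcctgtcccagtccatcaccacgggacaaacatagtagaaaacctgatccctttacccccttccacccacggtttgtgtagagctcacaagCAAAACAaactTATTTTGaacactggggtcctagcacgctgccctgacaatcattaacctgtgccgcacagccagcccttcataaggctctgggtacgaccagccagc
Igfbp3 promoter: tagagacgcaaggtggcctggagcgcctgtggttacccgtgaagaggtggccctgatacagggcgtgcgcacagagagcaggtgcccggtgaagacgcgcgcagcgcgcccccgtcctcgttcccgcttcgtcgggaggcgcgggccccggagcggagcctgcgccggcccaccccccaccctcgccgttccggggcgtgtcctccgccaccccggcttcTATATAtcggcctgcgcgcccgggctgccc
Igfbp2 promoter: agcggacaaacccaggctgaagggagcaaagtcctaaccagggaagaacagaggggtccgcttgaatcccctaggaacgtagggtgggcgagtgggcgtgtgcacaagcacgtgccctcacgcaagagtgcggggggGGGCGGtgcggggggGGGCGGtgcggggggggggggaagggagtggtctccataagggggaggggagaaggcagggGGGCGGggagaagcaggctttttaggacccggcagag
Igfbp5 promoter: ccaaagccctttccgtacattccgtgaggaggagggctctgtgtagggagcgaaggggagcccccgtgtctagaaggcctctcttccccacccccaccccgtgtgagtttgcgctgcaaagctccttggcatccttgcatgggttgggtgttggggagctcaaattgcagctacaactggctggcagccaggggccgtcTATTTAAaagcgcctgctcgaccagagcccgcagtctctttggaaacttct

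Igfbp1 is known as a gene that insulin represses through FoxO factors bound at an insulin response unit in its promoter. The letters TGTTTTG (here on the other strand, as CAAAACA) and TATTTTG each matched once in its window, ending 102 and 91 bases before the start. Of 32851 mouse promoter windows of the same length, 5.56% held TGTTTTG, 3.95% held TATTTTG and 0.381% held both. RefSeq gives Igfbp2 2 starts. The window printed had 3 matches to the GC box letters GGGCGG, which 32.7% of windows held, and the window of the other start (chr1:72825137-72825386) had none. The Igfbp3 window held TATATA (5.25% of windows) ending 25 bases before the start, and that of Igfbp5 held TATTTAA (4.18% of windows) ending 45 bases before it. A match is a run of letters and not a measured site. Igfbp2 and Igfbp5 are neighbouring protein-coding genes on opposite strands of chromosome 1, and Igfbp1 and Igfbp3 are neighbours on opposite strands of chromosome 11.

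Values are processed spot signals on a log2 scale after the 75th percentile of each array was subtracted, so that 0 is the 75th percentile. Of 43379 non-control spots, 23983 to 25690 were well above background on the NPC arrays, against 26840 for Mixture, and 0 spots were saturated. The 4 arrays shared 1 slide and 1 scan. Of 14 neural progenitor markers, NS21 had 10 well above background, NS195R 14, NSEB5-2C 11 and Mixture 12. Nes and Vim, which code for intermediate filaments of progenitors, were well above background in every line. Sox2, a factor that maintains progenitors, was not well above background in NS21, and neither NS21 nor NSEB5-2C had Fabp7 or Hes5 well above background. Among the labels of Mixture, the source names an NPC line with doxycycline. The liver marker Alb was not well above background in any line (-7.05, -7.20 and -7.17 in the order above) and stood at 8.51 on the array labelled Mixture.

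Relative to Mixture, none of the 9 genes was called higher in the NPC lines and 1, Igfbp1, was called lower. On the probe kept for each gene, Igf1, Igf1r, Igfbp1, Igfbp6 and Igfbp7 lay below Mixture in all 3 lines, which 5700 of the 19822 genes tested also did. On these probes, Igfbp2, Igfbp3, Igfbp4 and Igfbp5 lay above Mixture in at least 1 line and below it in at least 1 other. Further probes of Igf1r and Igfbp5 did not all fall on the same sides, as given below. The test was limma on the 3 NPC arrays against the single Mixture array, two-sided, at a Benjamini-Hochberg adjusted p under 0.05 over all genes. It called 187 of 19822 genes (0.943%) higher and found 1765 (8.9%) lower. By unadjusted p under 0.05 there were 3098 genes above and 3049 below Mixture, among them 0 and 3 of the 9. The spread comes from the 3 lines alone, the Mixture array is assumed to vary like them, and p-values hold differences between lines together with technical error. For a gene not well above background in any line, this spread is between dim signals and does not measure how its RNA varies. Among the 12731 genes well above background on all 4 arrays, the median log2 ratio was 0.71, so that a gene at 0 was lower than most. The median ratio of the 9 genes was -2.52, against 0.44 for all genes tested.

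**Figure D1:**
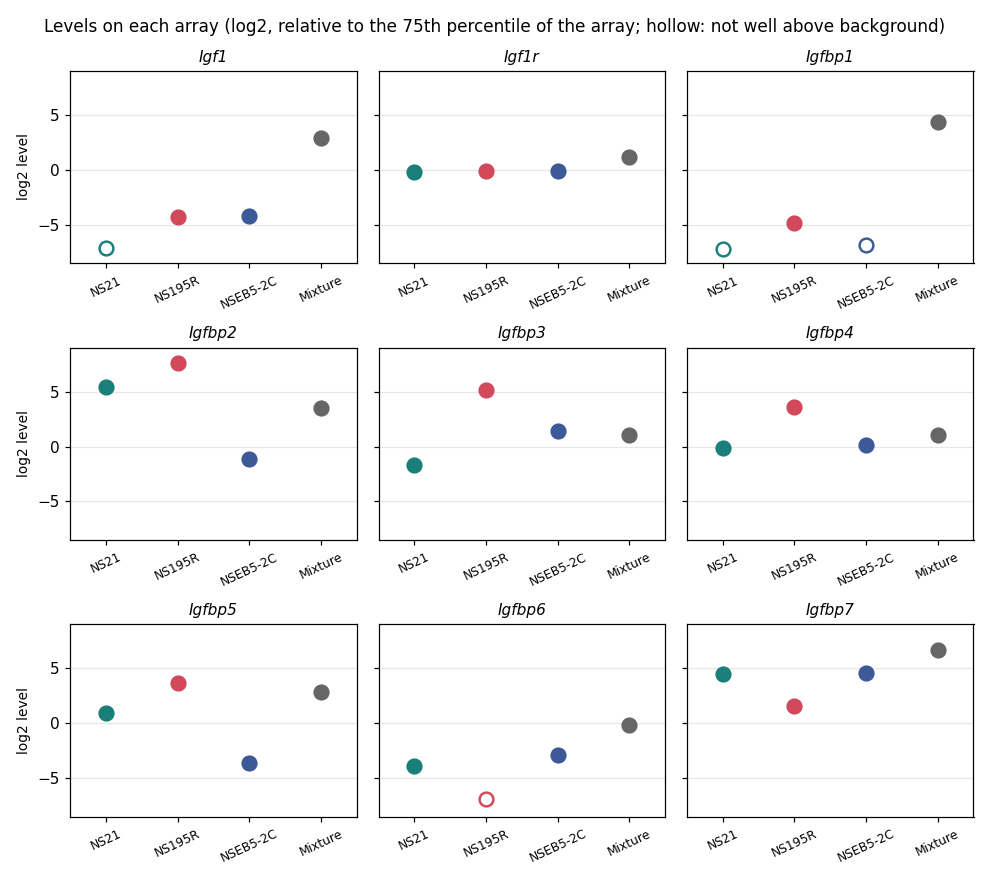
Log2 level of the probe kept for each of the 9 genes on each array, relative to the array's 75th percentile (1 point per array, with NS21, NS195R, NSEB5-2C and Mixture from left to right). Hollow points were not well above background. Igf1 and Igfbp1 sit at least 7 log2 units lower in every line than in Mixture, the 3 lines are close together for Igf1r, and they are far apart for Igfbp2, Igfbp3 and Igfbp5.

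Igf1, the ligand, was close to background in the NPC lines and bright in Mixture. The brightest probe over the arrays (A_51_P147942, placed by the files at chromosome 10, 87488982 to 87489041, on a genome build not given in the sources used here) was spotted 10 times on each array. Its level was -7.13 in NS21, -4.30 in NS195R, -4.23 in NSEB5-2C and 2.85 in Mixture. All 10 copies in NS21 were not well above background, and every copy used on the other arrays was. The SD of the copies was 0.26 in NS21, 0.22 in NS195R, 0.22 in NSEB5-2C and 0.04 in Mixture, which is the error between spots of 1 array and not between samples. Igf1 was at least 239-fold lower in NS21, 142-fold lower in NS195R and 136-fold lower in NSEB5-2C than in Mixture.

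The lines averaged -5.22 ± 1.65 (SD, n = 3) for Igf1, against 2.85 in Mixture, a log2 ratio of -8.07 (SE 1.52) with an adjusted p of 0.0755 by limma, and Igf1 thus missed the threshold. With dim signals set to the lowest well-measured signal of their array, the ratio was -7.38 with a limma adjusted p of 0.00692. The ratio was -4.80 with an adjusted p of 0.00454 by limma after normexp background correction, and the adjusted p ranged up to 0.163 over the alternatives. The SE was 0.49 with dim signals raised and 0.21 with normexp, against 1.52. Both settings draw dim signals together, so their lower p-values are no separate support. A second probe (A_52_P536434, made to the transcript NM_184052) had levels of -7.04, not well above background, in NS21, -4.45 in NS195R, -4.14 in NSEB5-2C and 2.40 in Mixture. Another (A_52_P306327, to the transcript AK050118) was not well above background in any line and stood at -4.17 in Mixture. It was at least 1.84-fold lower in NS21, 2.03-fold in NS195R and 2.03-fold in NSEB5-2C than in Mixture. Its adjusted p over all probes was 0.0310 by limma. That p-value rests on the spread between dim signals, so it adds no support to the Igf1 ratio.

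Igf1r, which codes for the receptor, had nearly the same level in the 3 lines and a higher one in Mixture on its brightest probe of that name. The processed signals of this probe (A_51_P318365, to NM_010513) were 209.07 in NS21, 236.98 in NS195R, 208.43 in NSEB5-2C and 578.34 in Mixture. The scaled log2 levels were -0.19, -0.09 and -0.15 in these lines and 1.16 in Mixture, so all 3 lines lay below Mixture and next to each other on this probe. This is 2.55-fold lower in NS21, 2.38-fold in NS195R and 2.49-fold in NSEB5-2C. The log2 ratio was -1.31 (SE 0.34) with an unadjusted p of 0.0255 and an adjusted p of 0.117 by limma, and lay -2.02 from the median of the genes measured on all arrays. The lines spanned 0.10 on the log2 scale, and 98.2% of 13340 genes well above background in all 3 lines had a wider span, the median span being 0.84. The ratio was -0.55 (limma adjusted p 0.472) with median scaling and -0.08 (limma adjusted p 0.924) as the mean of both probes of that name, against a lowest adjusted p of 0.0372 over the alternatives.

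Other probes of Igf1r did not give the same direction, so no direction is given for the receptor as a whole. The other probe of that name (A_52_P668647, to the transcript AK044980) had signals of 61.657 in NS21, 94.150 in NS195R, 30.747 in NSEB5-2C and 27.367 in Mixture. All 3 lines lay above Mixture on it, with a log2 ratio of 1.14 (SE 0.75) and an adjusted p over all probes of 0.382 by limma. On the array design, 2 more probes carry RIKEN names (A330103N21Rik and D930020L01) that RefSeq now lists as synonyms of Igf1r. The first had signals of 1042 in NS21, 1114 in NS195R, 1014 in NSEB5-2C and 887 in Mixture, a log2 ratio of 0.35 (SE 0.34), and the ratio of the second was 0.45 (SE 0.53) on that scale. What separates these probes was not tested.

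**Figure D2:**
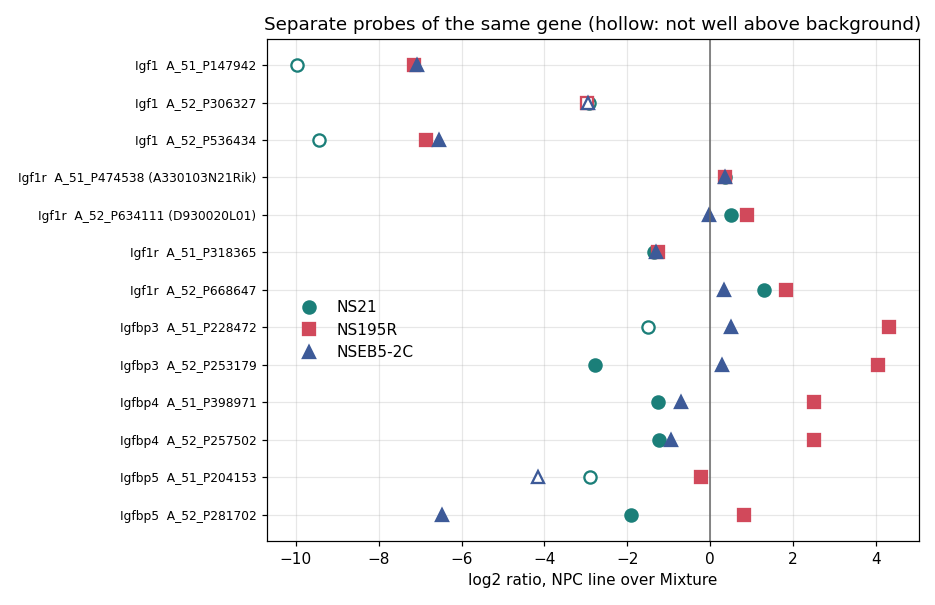
Log2 ratio of each NPC line to Mixture for every probe of the genes with more than 1 probe (circles NS21, squares NS195R, triangles NSEB5-2C, hollow where not well above background in that line). The probes of Igf1, Igfbp3 and Igfbp4 fall on matching sides of 0 in each line, whereas A_51_P318365 of Igf1r lies at about -1.31 and A_52_P668647 at positive ratios. For Igfbp5, NS195R lies above 0 on A_52_P281702 and below it on A_51_P204153 (-0.22).

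Igfbp1, a binding protein made mainly by liver and switched off by insulin, was the member called lower. Its level was -7.26 in NS21, -4.84 in NS195R, -6.87 in NSEB5-2C and 4.29 in Mixture. NS195R alone of the lines was well above background, with a processed signal of 8.79 against 5067 in Mixture. Igfbp1 was at least 650-fold lower in NS21, 562-fold lower in NS195R and at least 715-fold lower in NSEB5-2C. The lines averaged -6.32 ± 1.30 (SD, n = 3), against 4.29 in Mixture, a log2 ratio of -10.61 (SE 1.21), lower in 3 of 3 lines, with an adjusted p of 0.0286 by limma. NS195R was close to the lowest well-measured signal of its array, 6.92, and 2 of the lines were not well above background. The p-value therefore rests on a spread between dim signals. The size of the ratio also depends on their handling: it was -9.32 with dim signals set to the lowest well-measured signal of their array and -6.41 with normexp. The SE was 0.31 and 0.18 in these settings, which draw dim signals together, so their lower p-values are no separate support. Without NS21 the adjusted p was 0.142, without NS195R 0.0543 and without NSEB5-2C 0.121, with ratios of -10.15, -11.35 and -10.34, and over all alternatives it ranged from 0.00313 to 0.142. Genes of the liver list moved alongside: 8 of its 9 tested genes were called lower, beside 8.9% of all genes tested, with a median ratio of -11.53. Of those called, Alb, Apoa1, Apoc3, Cyp2e1, Fgb and Ttr were dim in every line, so their p-values rest on the spread between dim signals. The mean level of the liver list was -6.29 in NS21, -6.17 in NS195R, -6.49 in NSEB5-2C and 4.88 in Mixture. The part of these genes' source in the Igfbp1 ratio was not tested.

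Igfbp6, which prefers IGF2 over IGF1, was dim in the NPC lines. It stood at -3.86 in NS21, -6.85 in NS195R, -2.90 in NSEB5-2C and -0.13 in Mixture. The NS195R signal was not well above background. This is 13.4-fold lower in NS21, at least 33.4-fold lower in NS195R and 6.83-fold lower in NSEB5-2C, and the log2 ratio was -4.41 (SE 1.87, limma adjusted p 0.225). With normexp it was -1.96 (limma adjusted p 0.0527, over the alternatives from 0.0527 to 0.371).

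Igfbp7, which codes for the member with weak affinity for IGFs and is found in vessel walls and matrix, had levels of 4.47 in NS21, 1.59 in NS195R, 4.59 in NSEB5-2C and 6.72 in Mixture. All 3 lines were well above background and below Mixture, by 4.76-fold, 35.1-fold and 4.37-fold in that order. The log2 ratio was -3.17 (SE 1.56, limma adjusted p 0.272). The endothelial list was called lower for 8 of 10 genes, beside 8.9% of all genes tested, with a median ratio of -7.10. Of those called, Cdh5, Pecam1, Tek and Tie1 were dim in every line, so their p-values rest on the spread between dim signals. The part of the endothelial list in the Igfbp7 ratio was not tested. In bulk RNA, fewer cells of a type and less RNA per cell cannot be told apart.

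Igfbp2, a binding protein abundant in the developing brain, had the widest span between lines of the 9 genes. The processed signals were 10041 in NS21, 48225 in NS195R, 105.59 in NSEB5-2C and 2963 in Mixture. On the scaled log2 axis this is 5.40 in NS21, 7.58 in NS195R, -1.13 in NSEB5-2C and 3.52 in Mixture. NS21 and NS195R lay above Mixture, by 3.67-fold and 16.7-fold, and NSEB5-2C lay 25.2-fold below it. NS195R was 420-fold and NS21 92.5-fold above NSEB5-2C. Of the 13340 genes well above background in all 3 lines, 10 (0.075%) had a wider span. The mean of the lines, 3.95 ± 4.53 (SD, n = 3), against 3.52 in Mixture, gave a log2 ratio of 0.43 (SE 4.07) with a limma adjusted p of 0.952, and this mean describes none of the lines.

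Igfbp3, which codes for the main IGF carrier in serum, was highest in NS195R. Its kept probe (A_52_P253179, to BC058261) stood at -1.71 in NS21, 5.13 in NS195R, 1.37 in NSEB5-2C and 1.08 in Mixture. NS195R was 16.5-fold above Mixture, NSEB5-2C 1.23-fold above it and NS21 6.90-fold below it. NS195R exceeded NS21 by 114-fold and NSEB5-2C by 13.5-fold. The second probe (A_51_P228472, to NM_008343) was not well above background in NS21, and gave at least 56.5-fold and 14.0-fold for the same 2 comparisons. Its signals were 7.66 in NS21, 457.43 in NS195R, 30.062 in NSEB5-2C and 23.685 in Mixture. The log2 ratio of the lines to Mixture was 0.52 (SE 3.08, limma adjusted p 0.923) on the kept probe, and 55 genes (0.412%) had a wider span between lines.

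Igfbp4, which codes for an inhibitor of IGF action released by the protease PAPP-A, also stood out in NS195R. Its level was -0.16 in NS21, 3.57 in NS195R, 0.12 in NSEB5-2C and 1.07 in Mixture. NS195R lay 5.64-fold above Mixture, while NS21 lay 2.35-fold and NSEB5-2C 1.93-fold below it. NS195R was 13.2-fold above NS21 and 10.9-fold above NSEB5-2C on the kept probe, and 13.5-fold and 9.21-fold on the other. The log2 ratio to Mixture was 0.10 (SE 1.89, limma adjusted p 0.975) and turned to -0.10 after quantile normalization.

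Igfbp5, a conserved binding protein that also attaches to extracellular matrix, had the same order of the 3 lines as Igfbp2 on its kept probe. Its kept probe (A_52_P281702, to NM_010518) stood at 0.93 in NS21, 3.65 in NS195R, -3.63 in NSEB5-2C and 2.84 in Mixture. NS195R was 1.76-fold above Mixture, NS21 3.76-fold below it and NSEB5-2C 88.7-fold below it. NS195R exceeded NSEB5-2C by 156-fold and NS21 exceeded it by 23.6-fold. The second probe (A_51_P204153) was not well above background in NS21 and NSEB5-2C and had a level of -3.09 in NS195R and -2.87 in Mixture. On this probe NS195R thus lay slightly below Mixture (log2 ratio -0.22) and not above it. It gave NS195R at least 3.88-fold above NS21 and at least 4.27-fold above NSEB5-2C. The log2 ratio of the kept probe was -2.52 (SE 3.31, limma adjusted p 0.656), and 33 genes (0.247%) had a wider span. The ratio was -0.55 without NSEB5-2C and -4.19 without NS195R.

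**Figure D3:**
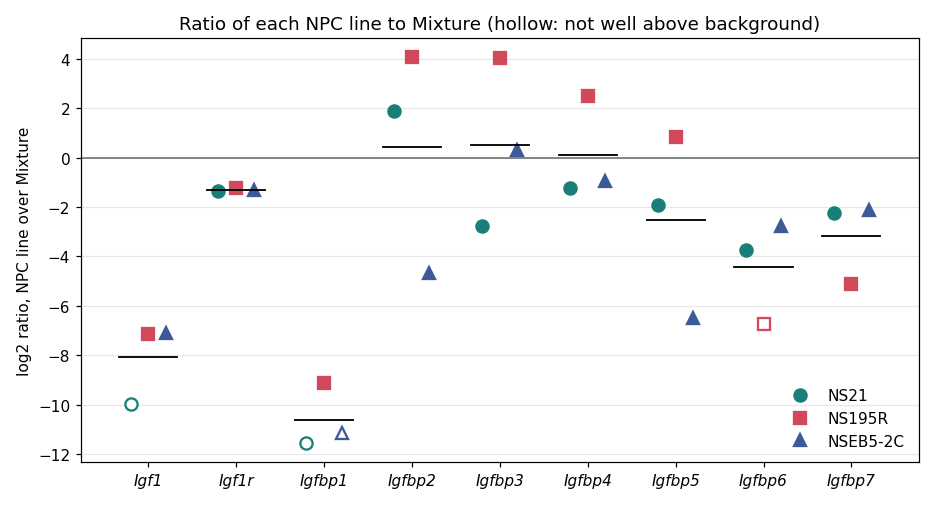
Log2 ratio of each NPC line to Mixture for the kept probe of each gene (circles NS21, squares NS195R, triangles NSEB5-2C, hollow where not well above background), with a bar at the mean of the 3 lines. All lines lie below 0 for Igf1, Igf1r, Igfbp1, Igfbp6 and Igfbp7, and NS195R lies above 0 for Igfbp2, Igfbp3, Igfbp4 and Igfbp5.

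Each line was next compared with the other two, which the use of independent lines in the design allows. NS195R was at least 2-fold above both other lines for Igfbp2, Igfbp3, Igfbp4 and Igfbp5, that is 4 of 9 genes, beside 10.3% of all genes tested. It was at least 2-fold below both for Igfbp6 and Igfbp7, 2 of 9, beside 5.88%. Igfbp6 was not well above background in NS195R, and its difference from the mean of the other lines, -3.47 on the log2 scale, was -0.52 with normexp. NSEB5-2C was at least 2-fold below both for Igfbp2 and Igfbp5, 2 of 9, beside 6.3%, and above both for 0 of 9, beside 5.6%. NS21 was at least 2-fold below both for Igfbp3, 1 of 9, beside 4.06%, and above both for 0 of 9, beside 7.3%. These counts carry no test, and dim signals were again set to the lowest well-measured signal of their array.

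With 1 array per line, limma called 0 genes in each comparison of lines, while an unadjusted p under 0.05 was found for 1133 genes with NS21, 2080 with NS195R and 1154 with NSEB5-2C. For NS195R, Igfbp4 differed from the other lines by 3.59 on the log2 scale (SE 0.42, unadjusted p 0.00747, limma adjusted p 0.273). Igfbp7 differed by -2.94 (SE 0.39, unadjusted p 0.0103, limma adjusted p 0.281): it lay 7.36-fold below NS21 and 8.02-fold below NSEB5-2C in NS195R. For NSEB5-2C, Igfbp2 differed by -7.62 (SE 1.30, unadjusted p 0.0186, limma adjusted p 0.771). For the kept probe of Igf1r the same difference was -0.07 with NS21, 0.08 with NS195R and -0.01 with NSEB5-2C (limma adjusted p of 0.984 or more). On its probe A_52_P668647, NS195R lay 2.82-fold and NS21 1.95-fold above NSEB5-2C.

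Marker lists of mesenchyme and of progenitors also had their highest mean level among the lines in NS195R. The same held for the endothelial and liver lists and for the mean over all genes tested. Over all genes tested, NS195R had -1.33, against -1.37 for NS21 and -1.52 for NSEB5-2C. For the endothelial list, NS195R had -4.39, against -5.52 for NS21 and -5.57 for NSEB5-2C. A list of muscle and heart markers was instead highest in NS21, at -3.83, against -4.60 for NS195R. The mean level of 12 mesenchyme markers was -0.20 in NS21, 1.64 in NS195R, -0.03 in NSEB5-2C and 3.64 in Mixture. Of the 12, 0 were called against Mixture, beside 0.943% higher and 8.9% lower of all genes tested. Their median ratio was -4.27, and 2 were lower at an unadjusted p under 0.05 by limma, beside 3049 of 19822 genes. The 12 markers did not share 1 order of lines. NS195R was at least 2-fold above both other lines for 5 of the 12 and below both for 1. NSEB5-2C was above both for 1 and below both for 3, and NS21 above both for 1 and below both for 4. Over all genes tested, the shares above and below both were 10.3% and 5.88% for NS195R. They were 5.6% and 6.3% for NSEB5-2C, and 7.3% and 4.06% for NS21. Dcn, which codes for a matrix proteoglycan, stood at 0.54 in NS21, 2.96 in NS195R, -2.63 in NSEB5-2C and 5.83 in Mixture, whereas Col1a2, which codes for a collagen chain, stood at -3.50, 1.94 and 4.70 in these lines, and 6.56 in Mixture. Tagln, a smooth muscle gene, was lowest in NS195R, at -1.34, against 5.15 in NS21 and 4.12 in NSEB5-2C. The 14 progenitor markers had a mean level of -1.70 in NS21, 1.45 in NS195R, -1.45 in NSEB5-2C and -1.53 in Mixture. NS195R was at least 2-fold above both other lines for 9 of these 14, beside 10.3% of all genes tested. Of the 14, 3 varied by less than 2-fold over the lines. The part of any of these groups of markers in the differences between lines was not tested.

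The genes with the most similar pattern over the 4 arrays were found among 11045 named genes well above background on all of them, by the Euclidean distance of log2 levels centred on their mean. Nearest to Igfbp2 were Efs (distance 1.99), Tril (2.44) and Bex2 (2.69). Nearest to Igfbp3 were Cplx2 (0.66), Trp53i11 (0.73) and Cpne8 (0.81). Igfbp4 had Dtx4 (0.28), Nim1k (0.37) and Map7d2 (0.38) as its nearest. The list for Igfbp5 held Pcsk6 (1.34), which codes for a proprotein convertase, Col6a3 (1.35), which codes for a collagen chain, and Sparcl1 (1.65). The list for Igfbp7 held Stap2 (0.29), Pik3cd (0.51) and Fah (0.58). With 4 arrays, such likeness describes these RNAs and no more.

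Of 8 other ligands, receptors and carriers of the pathway, 0 were called higher in the NPC lines and 2 lower, with a median ratio of -1.61. Of all genes tested, 0.943% were called higher and 8.9% lower. Igfals, which codes for the serum partner of IGF and IGFBP3, was not well above background in any line and was at least 21.2-fold lower than in Mixture (limma adjusted p 0.0216). Ins1, one of the mouse insulin genes, was likewise dim in every line and at least 4.08-fold lower (limma adjusted p 0.0209). For Igfals and Ins1 the p-value rests on the spread between dim signals. Igf2, the other IGF ligand, differed widely between lines, at 7.19 in NS21, 2.97 in NS195R, 0.43 in NSEB5-2C and 5.11 in Mixture (log2 ratio -1.57, SE 3.07, limma adjusted p 0.758). Igf2r, the receptor that clears IGF2, stood at 4.56 in NS21, 2.13 in NS195R, -1.79 in NSEB5-2C and 2.49 in Mixture (log2 ratio -0.86, SE 2.89, limma adjusted p 0.862). Both were highest in NS21 and lowest in NSEB5-2C. Insr, which codes for the insulin receptor, lay at a ratio of -0.83 (log2, SE 0.53, limma adjusted p 0.379), and Ins2 one of -1.01 (SE 0.39, limma adjusted p 0.196).

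Among 10 tested proteases of binding proteins and their inhibitors, 0 were called higher and 1 lower, beside 0.943% and 8.9% of all genes tested. Their median ratio was -0.09. Plg, which codes for the plasmin precursor made in liver, was dim in every line and at least 485-fold lower than in Mixture (limma adjusted p 0.0136, from the spread between dim signals). Htra1, a serine protease that cuts binding proteins, was bright on every array, at 4.91 in NS21, 3.83 in NS195R, 5.60 in NSEB5-2C and 4.41 in Mixture. Adam12, which cuts IGFBP3 and IGFBP5, was not well above background in NS21 or Mixture, and its level was -0.26 in NS195R and -3.71 in NSEB5-2C. Mmp2, a metalloproteinase, had -1.15 in NS21, 1.97 in NS195R, 3.08 in NSEB5-2C and 1.31 in Mixture. Ctsd, Adamts1 and Stc2 had log2 ratios of -0.18, -1.03 and 0.56, with limma adjusted p-values of 0.857, 0.459 and 0.737.

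Of the 28 genes of IGF and insulin signal transduction inside the cell, NS21 and NS195R had 28 well above background and NSEB5-2C had 27. Limma called 0 of the 28 in either direction, beside 0.943% higher and 8.9% lower of all genes tested. At an unadjusted p under 0.05, 4 were higher and 1 lower by limma, beside 3098 and 3049 of the 19822 genes tested. The median ratio of the 28 genes was 0.60, against 0.44 for all genes tested, and 27 of 28 were well above background on all 4 arrays. In all 3 lines, 18 of the 28 lay above Mixture and 2 below it, beside 8531 and 5700 of the 19822 genes tested. Large ratios among genes measured on all arrays were those of Pik3r3, a regulatory subunit of PI3K (2.996, SE 0.98, limma adjusted p 0.158), and Shc1, an adaptor of the receptor (2.43, SE 0.97, limma adjusted p 0.207). Small ones were those of Grb14, an adaptor that inhibits insulin receptor signals (-2.50, limma adjusted p 0.486), and Irs4 (-0.17, limma adjusted p 0.785). Grb14 was high in NS195R and Mixture, with 2.55 and 2.54, and lower in NS21 and NSEB5-2C, with -2.04 and -0.39. Eif4ebp1, a translation repressor under mTOR, stood at 5.87 in NS21, 3.54 in NS195R, 5.81 in NSEB5-2C and 3.64 in Mixture. Grb10, an imprinted adaptor that restrains growth signals, stood at -3.10 in NS21, -2.45 in NS195R, -6.16 in NSEB5-2C, where it was not well above background, and 3.06 in Mixture (log2 ratio -6.97, limma adjusted p 0.117).

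Of 13 FoxO factors and targets, 0 were called higher and 2 lower, beside 0.943% and 8.9% of all genes tested, with a median ratio of -1.54. Both called genes code for enzymes of glucose production in liver and kidney: Pck1 was at least 1927-fold lower (limma adjusted p 0.00846) and G6pc at least 497-fold lower (limma adjusted p 0.00932), with neither well above background in any line. Both p-values thus rest on the spread between dim signals. Foxo1 stood at 3.24 in NS21, 0.51 in NS195R, 1.17 in NSEB5-2C and 1.99 in Mixture. Foxo6, a FoxO factor of the brain, was high in NS195R and Mixture, with 0.02 and 0.15, and low in NS21 and NSEB5-2C, with -3.66 and -3.78. The muscle ubiquitin ligase gene Trim63 stood at -2.09 in NS21 and 2.29 in Mixture and was not well above background in NS195R or NSEB5-2C. Sesn3, Cdkn1b and Bcl2l11 had log2 ratios of 1.21, 0.30 and 0.21, and Bcl6 and Sesn1 had -1.55 and -1.57, none past the threshold (limma adjusted p-values from 0.198 to 0.892).

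In the growth hormone axis, which drives Igf1 in liver, 0 of 10 tested genes were called in either direction, with a median ratio of -1.95. Beside this, 0.943% of all genes tested were called higher and 8.9% lower. An unadjusted p under 0.05 by limma was reached by 0 above Mixture and 3 below it, beside 3098 and 3049 of the 19822 genes tested. Ghr, which codes for the growth hormone receptor, stood at -0.83 in NS21, -0.03 in NS195R, 0.54 in NSEB5-2C and 3.31 in Mixture. All 3 lines lay below Mixture, and the ratio was -3.42 (log2, SE 0.70, limma adjusted p 0.0853). Jak2, the kinase bound to this receptor, had a ratio of 1.14 (SE 0.40, limma adjusted p 0.174), and Cish, an inhibitor induced by it, had -2.62 (SE 0.77, limma adjusted p 0.137). Socs1, Socs2 and Socs3, which code for further inhibitors, differed between lines without a call: Socs3 was lowest in NS195R, at 0.48, against 4.49 in NS21, 4.04 in NSEB5-2C and 2.30 in Mixture. Socs2 was highest in NS21, at 1.62, against 0.25 in Mixture, and Socs1 was highest among the lines in NSEB5-2C, at 1.92, against 3.08 in Mixture.

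**Figure D4:**
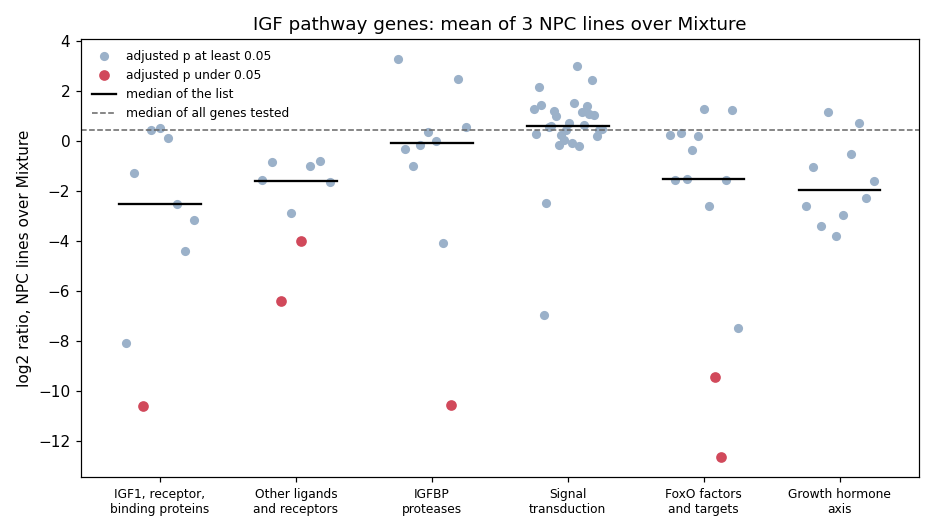
Log2 ratio of the mean of 3 NPC lines to Mixture for the tested genes of the 9 members and 5 other pathway lists (1 point per gene, red where the limma adjusted p was under 0.05), with a bar at the median of the list and a dashed line at the median of all genes tested, 0.44. The 28 signal transduction genes have a median of 0.60 and reach from -6.97 (Grb10) to 2.996 (Pik3r3), without a called gene. The called genes plotted lie between -4.01 and -12.64.

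The study selected genes by size, as those 1.5-fold or more over Mixture both in NSEB5-2C and in one of NS195R and NS21. Applied to all genes tested, with signal well above background asked of those lines, this rule of size kept 7149 of 19822 genes (36.1%) and 0 of the 9. On their kept probes, Igfbp2, Igfbp4 and Igfbp5 met the fold in NS195R but not in NSEB5-2C, and Igfbp3, 16.5-fold over Mixture in NS195R, was 1.23-fold over it in NSEB5-2C.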

How the data were processed

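The deposited files hold the intensity of each spot. Per the file headers, Agilent Feature Extraction 9.5.3.1 subtracted the background and wrote the processed signal with its flags. The authors' deposited value table had the same intensity at all 45018 features. Columns of other samples numbered 0. The deposited signals, on a linear scale, were turned here into log2 values, from which the percentile 75 of the array's non-control spots was taken away. Flagged spots were left out, copies of a probe were averaged and 19 probes lacking a value were dropped. Symbols came from the RefSeq gene table of GRCm38.p6. For the positions of probes, a genome build was not given in the sources used here.

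One probe per gene was kept (highest mean over the arrays, under the names in the files for the 9 genes), and the 19822 of 27659 genes that at least 1 array showed well above background were tested with limma 3.58.1 (R 4.3.3; two-sided, lmFit with eBayes), with p adjusted by Benjamini-Hochberg. The fit left 2 residual degrees of freedom, to which the prior added 1.33. NPC replicate 1 is NS21, 2 is NS195R and 3 is NSEB5-2C. Nothing in the labels says that a line was cultured more than once, and the number of arrays limits the precision. For a probe not well above background in a line or in all lines, "at least" sets Mixture against the higher of its own signal and the lowest signal well above background on each array. On simulated data for these genes with 200 changed, limma called 0 of 50 at each log2 size of 1, 2, 4 and 8. With 6000 changed it called 37, 507, 886 and 1215 of 1500 at those sizes, with 115 false calls.

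The members and gene lists were chosen with earlier results of these data known. Named were all members, and, of the other pathway lists, every called gene, up to 3 genes with the largest and 3 with the smallest ratio among those measured on all arrays, and genes at least 4-fold from both other lines in 1 line. Some genes that this rule names are not reported here, and the counts and medians of lists include them. For each member measured on all arrays whose levels span at least 2, the 3 nearest genes were named. The marker genes Nes, Vim, Sox2, Fabp7, Hes5, Alb, Dcn, Col1a2 and Tagln were picked for mention after their values were seen. Promoters are RefSeq windows of 250 bases. The alternatives were normexp background correction (offset 50), scaling, filters on dim probes, the choice of probe per gene, the variance prior, dim values, the fold of the study's rule, the value table and leaving out each line.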

Additional observations from a re-analysis of the deposited data

Results flagged for a closer look

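In 4 genes of the pathway, 1 NPC line lay at least 4-fold above Mixture and another at least 4-fold below it, with dim signals set to their array's lowest well-measured signal, as was the case for 250 of 19822 genes tested. Igfbp2 differed by 8.71 on the log2 scale between NS195R, its highest line, and NSEB5-2C, its lowest. Igfbp3 differed by 6.83 between NS195R and NS21. Igf2 differed by 6.76 and Igf2r by 6.35, both between NS21 and NSEB5-2C. These 4 differences stand out because single lines moved in opposite directions under the same contrast. With 1 array per line, the difference itself was not tested. A group of 3 lines is too small for a search for single outlying arrays.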

How the results depend on the processing

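Over 13 alternatives to the comparison with Mixture, Igf1, Igfbp1, Igfbp5, Igfbp6 and Igfbp7 stayed below Mixture wherever they were tested. Genes called higher, 187 as reported, numbered 969 with normexp, 527 with quantile normalization, 525 with no filter on dim probes, 473 with an intensity trend in the prior and 504 with dim values raised. Members called lower, 1 as reported, numbered 3 with normexp (Igf1, Igf1r and Igfbp1) and 2 with dim values raised (Igf1 and Igfbp1). With genes well above background on all arrays only, which drops Igfbp1, limma called 0 genes higher, 0 lower and 0 members, beside 3086 above Mixture and 711 below it at an unadjusted p under 0.05. Without any 1 of the NPC replicates, genes called ranged from 0 to 0 higher and from 0 to 0 lower, and members lower from 0 to 0. An unadjusted p under 0.05 was then reached by 1500 to 2362 genes above Mixture and 2834 to 3389 below it, and the residual degrees of freedom were 1. The Igf1 ratio passed with normexp (-4.80) and with dim values raised (-7.38), settings that both draw dim signals together. That of Igf1r passed with normexp (-1.12, limma adjusted p 0.0372, over the alternatives up to 0.924). Igf1r turned to 0.35 when the RIKEN-named probes were counted as Igf1r, an alternative chosen after seeing the data. Leaving out 1 line at a time, the ratio ranged from -1.39 (without NS195R) to 2.97 for Igfbp2 (-0.30 without NS21), from -1.25 (without NS195R) to 2.17 for Igfbp3 and from -1.09 (without NS195R) to 0.77 for Igfbp4, and quantile normalization turned that of Igfbp4 to -0.10. Differences of a line from the other lines that changed sign were small: with normexp, Igfbp6 in NS21 (-0.0052) and Igfbp1 in NSEB5-2C (0.035); with the mean of probes, Igf1r in NS21 (0.074); with quantile normalization, Igf1r in NSEB5-2C (0.0092); and with median scaling, Igf1r in NS195R (-0.23) and NSEB5-2C (0.34) and Igfbp3 in NSEB5-2C (0.016). The study's rule kept 1 member, Igfbp3, with median scaling. The cause of these changes was not tested. The median ratio of genes measured on all arrays was 0.53 with normexp, 0.65 with quantile normalization and 1.46 with median scaling. No paired analysis was possible because Mixture has 1 array and shares fewer than 2 replicate numbers with the NPC lines.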
